A study of Mus musculus with 2 samples.

Results

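Wnt proteins are secreted lipid-modified signals, and the 208 peaks described here are those that the authors' annotation assigned to a Wnt ligand, a Wnt receptor or a secreted Wnt antagonist. Members were chosen by gene symbol alone: Wnt ligands, Frizzled (Fzd) receptors, the co-receptors Lrp5 and Lrp6, the Dkk antagonists, and the Sfrp antagonists with Frzb. The peak list held 99797 peaks, of which 99782 carried an annotation, so the members were 0.208% of the annotated peaks. The rule covers 40 mouse genes in GENCODE M21, and 34 of them had at least 1 assigned peak.

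The peaks come from a CUT&Tag experiment, in which an antibody directs the transposase Tn5 to cut DNA near the antibody's target. The study made 1 anti-FLAG library and 1 IgG control library, both from hippocampal tissue of C57BL/6J mice with the genotype CamK-PARIS and without treatment. The age and number of the animals and the make-up of the transgene are not given in the sources used here. Both shared this genotype, so no library of another genotype was compared. PARIS is a transcriptional repressor with zinc fingers (mouse gene Zfp746), and FLAG is a short peptide tag. With 1 library per antibody there is no replicate error and no test between antibodies, and the sequencing depth is unknown from these files. All values below describe the anti-FLAG peak list, and confidence intervals cover counting error over peaks or genes only.

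In the canonical pathway a Wnt ligand binds a Frizzled receptor together with Lrp5 or Lrp6, which stops the degradation of beta-catenin and lets it act with TCF/LEF factors in the nucleus. Other Wnts act through Frizzled and alternative receptors on cell polarity and movement. Sfrp proteins and Frzb bind Wnts outside the cell, and Dkk1 blocks the Lrp co-receptors. In the hippocampus the pathway is known for its part in the formation of the structure in the embryo, in adult neurogenesis and in synapse formation.

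The sequences below are printed because they lie at the summit (the region of maximum signal) of the highest peak within 1 kb of a transcription start site (TSS) among the ligands, the Lrp co-receptors, the Dkk genes and the Sfrp and Frzb group, followed by the member peak with the highest signal of all, which was added after the values were seen. Each is the part of a 200 bp window around the summit that holds no annotated untranslated base, taken from GRCm38.p6 (the mm10 build) and written 5′ to 3′ on the strand of the gene. In the Lrp6 and Sfrp2 peaks coverage hardly varies along the peak. Their region of maximum signal spans nearly the whole peak, and the window marks its middle. Capitals mark CpG dinucleotides, which are frequent in CpG-island promoters.
Wnt10b, chr15:98778151-98778314, minus strand: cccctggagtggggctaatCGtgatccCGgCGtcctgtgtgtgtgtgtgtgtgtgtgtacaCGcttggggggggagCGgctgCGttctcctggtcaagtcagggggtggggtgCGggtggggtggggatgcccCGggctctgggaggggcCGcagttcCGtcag
Lrp6, chr6:134566535-134566642, minus strand: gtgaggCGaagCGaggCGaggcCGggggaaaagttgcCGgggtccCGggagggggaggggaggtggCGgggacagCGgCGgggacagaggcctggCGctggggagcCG
Dkk2, chr3:132084830-132085029, plus strand: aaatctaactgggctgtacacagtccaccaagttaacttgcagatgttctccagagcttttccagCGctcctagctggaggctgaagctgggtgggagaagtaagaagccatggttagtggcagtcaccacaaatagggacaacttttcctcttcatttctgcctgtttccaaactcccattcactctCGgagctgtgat
Sfrp2, chr3:83766587-83766786, plus strand: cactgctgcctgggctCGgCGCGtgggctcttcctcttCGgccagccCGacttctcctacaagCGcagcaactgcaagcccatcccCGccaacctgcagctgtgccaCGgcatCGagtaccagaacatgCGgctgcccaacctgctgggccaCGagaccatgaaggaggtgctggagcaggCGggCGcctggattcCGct
Wnt10a, downstream peak, chr1:74806991-74807190, plus strand: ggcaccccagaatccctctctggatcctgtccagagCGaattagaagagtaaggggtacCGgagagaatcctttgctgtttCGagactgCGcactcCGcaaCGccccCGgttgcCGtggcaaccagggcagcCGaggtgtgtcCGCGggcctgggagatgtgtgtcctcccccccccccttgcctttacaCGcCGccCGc
These stretches differed in composition. The Dkk2 stretch holds 2 CpGs in 200 bases and has a GC content of 48.5%, while the Sfrp2 stretch holds 14 and has 66.0%. The Lrp6 stretch holds 11 CpGs in 108 bases, and the Wnt10b stretch 10 in 164. The Wnt10a summit lies beyond the 3′ end of the gene and holds 14 CpGs in 200 bases.

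Ligand genes made up most of the members with a peak at a start site. A peak lay within 1 kb of an assigned TSS in 20 of the 40 genes (50.0%, 95% Wilson interval 35.2 to 64.8), against 41.6% of all 21911 protein-coding genes. Among the ligands 13 of 19 had one (68.4%, 46.0 to 84.6), as did 4 of 10 Frizzled receptors (40.0%, 16.8 to 68.7) and 1 of the 2 Lrp co-receptors. Among the antagonists, 1 of 4 Dkk genes and 1 of 5 genes of the Sfrp and Frzb group had such a peak, or 2 of 9 (22.2%) together. These shares are descriptions of 1 library, and the differences between the groups were not tested. Counting any assigned peak at any distance, 85.0% of the 40 genes had 1, against 71.0% of all protein-coding genes. The 6 genes without any were Wnt3a, Fzd6, Fzd9, Dkk1, Dkk4 and Sfrp4. The nearest peak to their 5′ ends lay 3128 bp away for Sfrp4, 6489 bp for Fzd9, 12208 bp for Wnt3a, 30283 bp for Dkk4, 41714 bp for Dkk1 and 52780 bp for Fzd6.

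**Figure D1:**
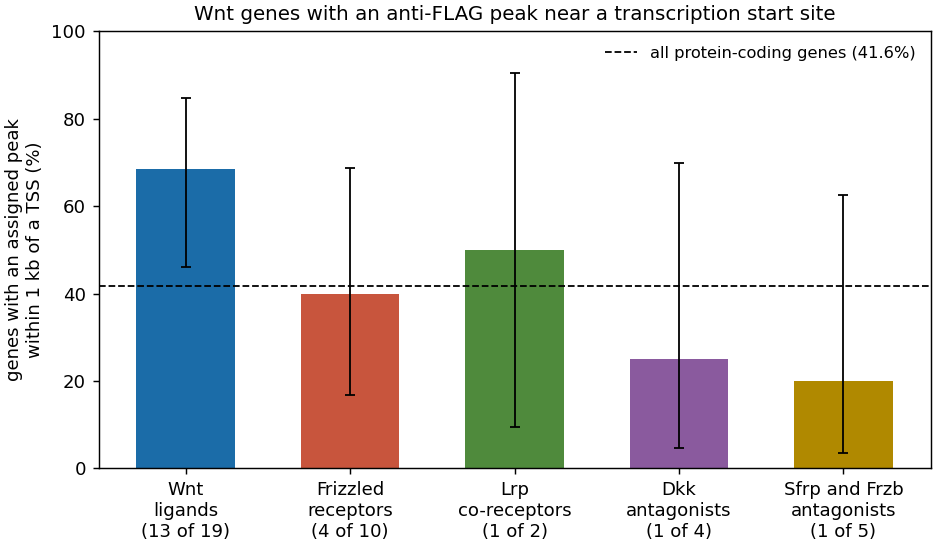
Share of genes in each role group that had an assigned peak within 1 kb of a TSS, in percent, with the number of genes under each bar. Error bars are 95% Wilson intervals over genes, and the dashed line is the share of all protein-coding genes, 41.6%. The ligands stood at 68.4%, the Frizzled receptors at 40.0%, and neither antagonist group above 25%.

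Among the ligands, Wnt10b, Wnt7a and Wnt16 had the highest signals at a start site. Signals here are the authors' maximum signal, the highest coverage within a peak, whose median over all annotated peaks was 101. Wnt10b, best known from bone and fat development, had its summit 10 bp upstream of a TSS in a peak on chromosome 15 at 98777818 to 98778971 with a maximum signal of 294. A further Wnt10b peak at 98775891 to 98776161, 909 bp downstream of another TSS, reached 238. Wnt7a, a ligand that promotes synapse formation, had a peak on chromosome 6 at 91410957 to 91411374 whose summit covered the TSS, with a maximum signal of 280. Wnt16 had a peak at 22288978 to 22289371 on the same chromosome, 286 bp downstream of a TSS and in an intron, with a maximum signal of 198. All 3 genes thus passed 189, the level at which the highest 10% of all peaks begins.

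Wnt7b, which acts in dendrite growth and in the formation of brain vessels, had 3 peaks within 1 kb of its start sites, on chromosome 15. The nearest, at 85581548 to 85582477, lay 182 bp upstream of its assigned TSS with a maximum signal of 165. The middle of its summit was 405 bp downstream of the 5′ end of the gene. The others, at an internal start site, reached 174 and 107, with summits 4657 and 3914 bp downstream of the 5′ end. Wnt5b also had 3 such peaks, on chromosome 6. The nearest, at 119544017 to 119544607, was 126 bp upstream and reached 147, and the others, at internal start sites far inside the gene, reached 29 and 15. With internal start sites included, Wnt7b therefore had 3 start-site peaks above the median of the list and Wnt5b 1. In each gene only 1 of the 3 lay near the 5′ end of the gene.

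Wnt6 and Wnt10a are neighbours on chromosome 1, and both had 2 peaks within 1 kb of a start site. For Wnt6 the nearest, at 74771477 to 74771950, lay 182 bp upstream of the TSS with a maximum signal of 123. For Wnt10a, a gene of tooth and skin development, it lay at 74791686 to 74792251, 473 bp downstream, with a maximum signal of 168. The second start-site peak of Wnt6 reached 134, at an internal start, and that of Wnt10a only 20.

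The other 6 of the 13 ligand genes had start-site peaks between 35 and 135. Wnt4, required in kidney and ovary development, had a constant-height peak on chromosome 4 at 137276607 to 137277015, 475 bp upstream, whose maximum signal was 127. Wnt3 had its peak at 964 bp upstream on chromosome 11 (103772791 to 103773187, maximum signal 111), and Wnt9a at 977 bp downstream on the same chromosome (59307871 to 59308227, maximum signal 104). Both lie just inside the 1 kb limit. Just outside the 1 kb limit were a Wnt2 peak at 1039 bp upstream with a maximum signal of 58 and a Wnt1 peak at 1134 bp downstream with 18. So were a Wnt6 peak at 1144 bp upstream with 200 and a Wnt7b peak at 1119 bp downstream with 179, of genes that also had peaks inside the limit. Wnt5a, the typical ligand of the beta-catenin-independent branch, had a broad but low peak across its start on chromosome 14 (28504187 to 28505108, maximum signal 35). The peaks of Wnt8b (chromosome 19, 44509546 to 44510150, maximum signal 135) and Wnt11 (chromosome 7, 98838971 to 98839143, maximum signal 76) lay 327 bp upstream and 75 bp downstream of internal start sites. The 5′ ends of these genes were 1142 bp (Wnt8b) and 3859 bp (Wnt11) from the nearest peak.

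The Frizzled genes are mostly short, and 4 of the 10 had a start-site peak. Fzd2 had the highest, 97 bp upstream of the TSS with a maximum signal of 260. Fzd1 followed with 177 at 75 bp downstream (chromosome 5, 4757851 to 4758644). Fzd4, which is also the receptor for Norrin in retinal vessels, had a single assigned peak in all, 125 bp downstream of its TSS (chromosome 7, 89404479 to 89404747, maximum signal 96, constant height). Fzd8 had 2 near its TSS on chromosome 18. The nearer by the annotated distance, 148 bp downstream at 9212311 to 9212931, had a maximum signal of 34. The other, 190 bp upstream, had 107, and its peak edge came closer to the gene start, at 73 bp. Fzd3, a receptor for axon guidance, had its nearest peak 1329 bp upstream, and Fzd5, Fzd7 and Fzd10 had none within 2 kb.

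Lrp6 had 2 low peaks at its start on chromosome 6, both of constant height. The first, at 134566728 to 134567243, covered the TSS and reached 52, and the second reached 72. Both were under the median of the list. Of the antagonists, Dkk2 had a peak 312 bp upstream of its TSS (chromosome 3, 132084655 to 132085407), where the maximum signal was 232. Sfrp2 had a peak over an internal TSS in coding sequence, 365 bp from the 5′ end of the gene (chromosome 3, 83766525 to 83766847), with a maximum signal of 11. The Dkk2 peak was thus in the highest 10% of the list, while the Sfrp2 peak was the lowest of the 29 members within 1 kb of a TSS.

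The other genes with assigned peaks had them only beyond 1 kb. Of the ligands, Wnt1, which patterns the midbrain, had 4 peaks with maximum signals of 18 in its intron, 125 in its 3′ untranslated region, and 278 and 56 downstream. Wnt2b, a ligand of the embryonic cortical hem, had 135 and 81 at 31893 and 30985 bp upstream and 118 and 94 in introns. Wnt9b, required for kidney tubules, had 128 and 84 upstream and only 26 and 29 inside the gene. Wnt2 had 134 and 58, both within 2 kb upstream, and Wnt8a a single peak of 105 in a coding exon. Apart from the downstream peak of Wnt1, none of these 15 peaks reached the highest 10% of the list.

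Among the receptors, Lrp5 had 6 peaks, all inside the gene, with maximum signals of 147, 143, 108, 97, 17 and 9. The one nearest to its 5′ end lay 3132 bp downstream and reached 17. Fzd10 had 6 peaks, all past its 3′ end at 11130 to 50138 bp from its TSS. One of these, at 128620185 to 128621409 on chromosome 5, reached 234 and was the widest Frizzled peak at 1225 bp, and the others ranged from 58 to 145. Fzd7 had 4 peaks between 57189 and 88700 bp upstream, 1 in its own transcript (115) and 1 beyond it (98), with a range over all 6 from 56 to 156. Fzd5 had 123 and 129 upstream, and 106 and 28 in introns of the neighbour Ccnyl1. Fzd3 had 108 at 1329 bp upstream and 68 in an intron. Frizzled peaks away from the start sites were therefore mostly outside the receptor genes, and those of Lrp5 were within the gene.

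Among the antagonists without a start-site peak, Dkk3 had 7 peaks, from 27 to 452. Its 4 peaks inside the gene reached 452, 154, 120 and 27. Sfrp1, which is active in the developing cortex, had 6 peaks from 40 to 141, the 2 intronic ones reaching 116 and 141. Frzb had 123 at 1439 bp downstream of the TSS and 28 at 31427 bp upstream. The single Sfrp5 peak reached 114 at 17827 bp upstream. Among these 16 peaks, the Dkk3 peak of 452 was alone in the highest 10%.

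Of the 22 member peaks in the highest 10% of the list, 6 lay within 1 kb of a TSS (27.3%) and 16 did not, against 32.2% of all peaks so high that lay within 1 kb. These 22 were 10.6% of the members, against 10.1% of all annotated peaks. Ordered by maximum signal, the first 10 members held 1 start-site peak, that of Wnt10b. All 10 varied in height along their length, as did 99.9% of all peaks in the highest 10%.

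The peak with the highest maximum signal, 710, lay on chromosome 1 at 74806422 to 74807469, 2243 bp beyond the end of Wnt10a and in no protein-coding gene. It ranked 54 of all 99797 peaks by maximum signal and 328 by total signal, the coverage summed over the peak, with 251148. Dkk3, a divergent member of the Dkk family, had the next, 452, in an intron 35057 bp from its TSS (chromosome 7, 112123714 to 112124146, total signal 152850). Wnt5b followed with 436 in an intron (chromosome 6, 119521366 to 119522247, total signal 173082). Sfrp2 had a peak of 394 (chromosome 3, 83798398 to 83798662) that lay 24082 bp beyond the gene, against the signal of 11 near its start.

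Lrp6 and Wnt4 each held 2 of the 10. For Lrp6 these were 388 in a coding exon (chromosome 6, 134450318 to 134451040) and 298 in an intron (134458238 to 134458812). They lay 116.1 and 108.4 kb downstream of the 5′ end of the gene, near its 3′ end, and the annotation measures them from an internal start 16920 and 9184 bp away. With them stood 5 further Lrp6 peaks of 114 to 149, so 7 of the 14 lay in the last 14 kb of the gene. The Wnt4 peaks, 378 (chromosome 4, 137294134 to 137295255, total signal 162232) and 370 (137292276 to 137292974), were intronic. The last of the 10, after Wnt10b, was a Wnt9a peak of 289 at 1432 bp upstream (chromosome 11, 59304894 to 59305874). By total signal the second member was a Wnt1 peak (chromosome 15, 98796458 to 98797972), 2621 bp beyond the end of Wnt1, with 250664 and a maximum signal of 278.

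**Figure D2:**
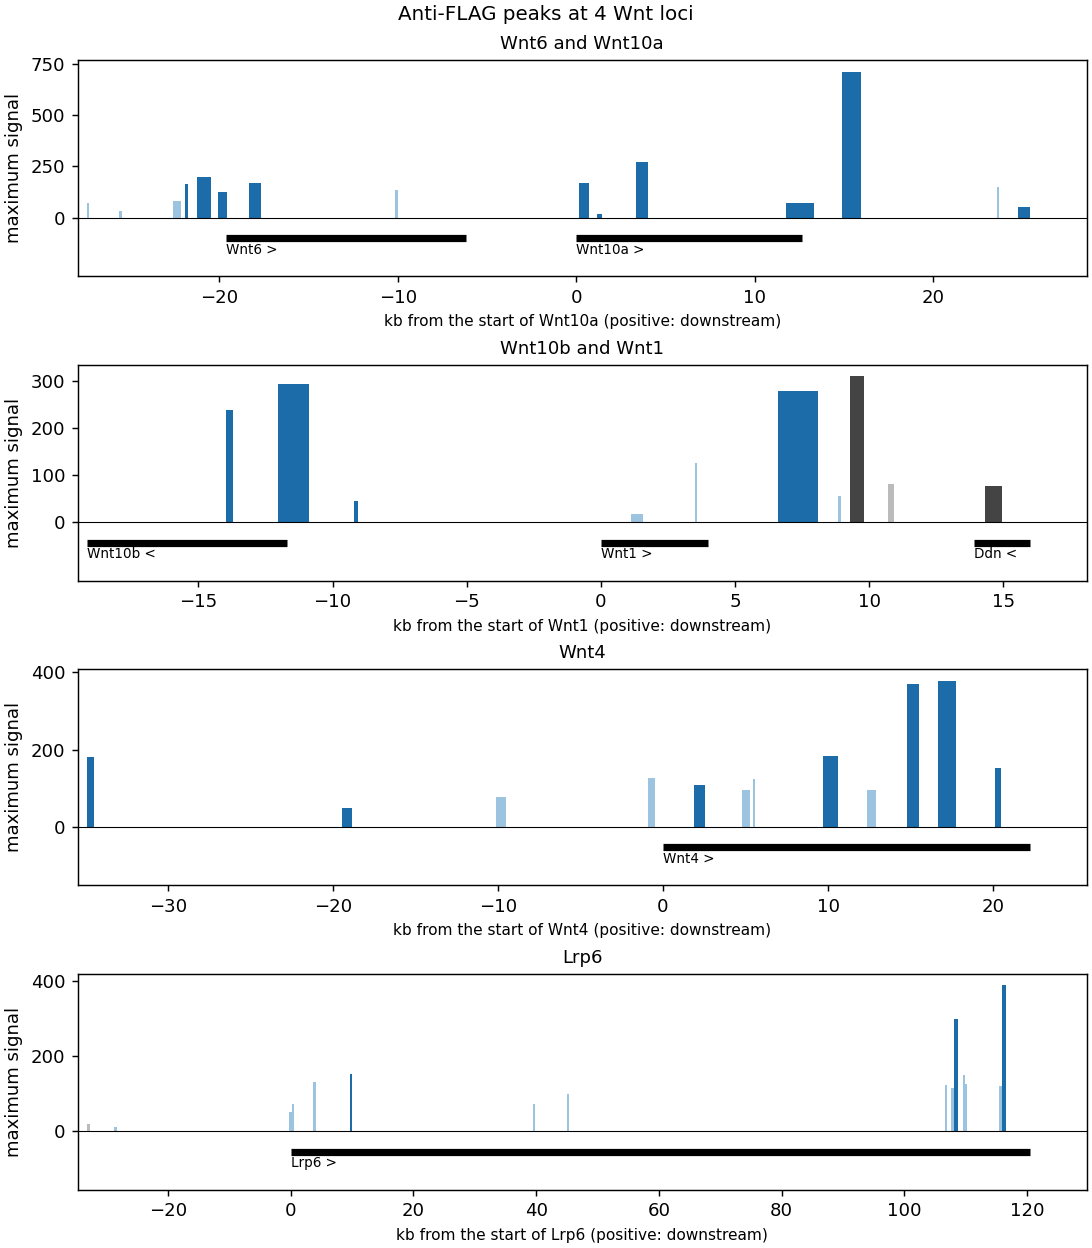
Maximum signal of all peaks (bars, drawn at their width) at 4 loci against the distance in kb from the start of the named gene, with protein-coding genes as black lines and their direction as an arrowhead. Dark blue bars are member peaks that vary in height, light blue bars member peaks of constant height, and grey bars (dark and light likewise) peaks assigned to other genes. The highest bar of the Wnt10a locus, 710, stands past the 3′ end of the gene, and the bars of 298 and 388 at Lrp6 stand near its 3′ end.

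Several Wnt genes lie in pairs, and the peaks around 4 such pairs were counted with 10 kb on either side, whatever gene they were assigned to. Wnt6 with Wnt10a held 13 peaks in 52288 bp, all of them assigned to the pair, and 9 varied in height. Wnt10b with Wnt1 also held 13, in 43126 bp, of which 6 were assigned to the neighbours Arf3 and Ddn. Wnt9b with Wnt3 held 15 peaks in 110594 bp, and 2 of these varied in height. Wnt3a with Wnt9a held 11 in 105520 bp, 9 assigned to Wnt9a and none to Wnt3a. In the Wnt10b and Wnt1 pair 8 peaks varied in height and in the Wnt3a and Wnt9a pair 5, and 36.7% of all annotated peaks did. The first 2 pairs had 2.49 and 3.01 peaks per 10 kb, the last 2 had 1.36 and 1.04. No such density over all genes is given here. In another window, the 100 kb around a gene start, all protein-coding genes had a median of 5 peaks.

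The 50 kb to either side of each gene start held a median of 6 peaks over the 40 genes and 5 over all protein-coding genes. For the ligands the median was 11, with a range from 3 to 24. The Frizzled genes had a median of 5.5, the Sfrp and Frzb group 3 and the Dkk genes 1. Wnt1 had 24 peaks in its window and Wnt10b 23, and 0.548% of protein-coding genes had 24 or more. At least 10 peaks were found around 10 of the 19 ligand genes and 3 of the 21 others (Dkk3, Lrp6 and Sfrp5), against 22.7% of protein-coding genes. Of these 10 ligand genes, 7 (Wnt1, Wnt10b, Wnt6, Wnt10a, Wnt3, Wnt3a and Wnt9a) belong to the pairs above, whose windows overlap, so that the same peaks are counted for both neighbours.

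In the authors' annotation, members lay most often in distal intergenic sequence. Promoters within 3 kb held 52 members (25%, 19.6 to 31.3) against 24.6% of all peaks. Within 1 kb the members had 29 peaks (13.9%, 9.89 to 19.3) against 15.3%. Introns held 23.1% (17.9 to 29.3) of members against 38.0%, and distal intergenic sequence 43.3% (36.7 to 50.1) against 31.9%. These shares varied by role. Of the 52 Frizzled peaks, 61.5% were distal intergenic and 13.5% intronic, and of the 14 Sfrp and Frzb peaks 64.3% were distal intergenic. Of the 20 Lrp peaks, 13 were intronic and 1 was distal intergenic. The Frizzled genes had a median length of 5253 bp in GENCODE M21, and Lrp5 and Lrp6 a median of 111114 bp.

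By number of assigned peaks Wnt11 came first with 16, followed by Fzd1 with 15, Fzd8 and Lrp6 with 14 each, Wnt4 with 12 and Wnt7b with 11. The others had fewer: Wnt5a and Wnt9a 9 each, Wnt5b and Wnt6 8 each, and Wnt10a and Dkk3 7 each. Lrp5, Fzd7, Fzd10 and Sfrp1 had 6 each, and Dkk2 and Sfrp2 5 each. Wnt1, Wnt2b, Wnt7a, Wnt9b, Fzd2 and Fzd5 had 4 each, and Wnt8b, Wnt10b and Wnt16 3 each. Wnt2, Wnt3, Fzd3 and Frzb had 2, and Wnt8a, Fzd4 and Sfrp5 1. The layouts of the first 5 were unlike. Of the 12 Wnt4 peaks 8 lay in the gene body, and of the 14 Lrp6 peaks 12 did. Of the 14 Fzd8 peaks 2 did, and the most distant lay 604122 bp upstream. Fzd1 had 3 in the gene and 3 in the neighbour Cdk14, with the farthest at 272367 bp. Of the 16 Wnt11 peaks 2 lay in the gene, and none of the 16 reached the highest 10% of the list, with maximum signals from 24 to 155. The 12 of Wnt4 ranged from 48 to 378.

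A peak's assigned gene and the gene it lies in were not always the same. Of the 208 members, 85 had their summit in the assigned gene, 115 in no protein-coding gene and 8 in another protein-coding gene (Cdk14, Ccnyl1, Erc1 or Usp47). In the other direction, 17 peaks that overlapped the body of a member were assigned elsewhere. Wnt3 had 9 of these, assigned to Nsf, with maximum signals from 21 to 163. Wnt5b had 6, assigned to Fbxl14, whose start lies within the Wnt5b gene. Wnt3a, a ligand required for the hippocampus to form, had no assigned peak, but 2 peaks of 146 and 241 in its body were assigned to Arf1. Between Wnt9b and Wnt3, 2 peaks only 148 bp apart were assigned to different genes of the pair.

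**Figure D3:**
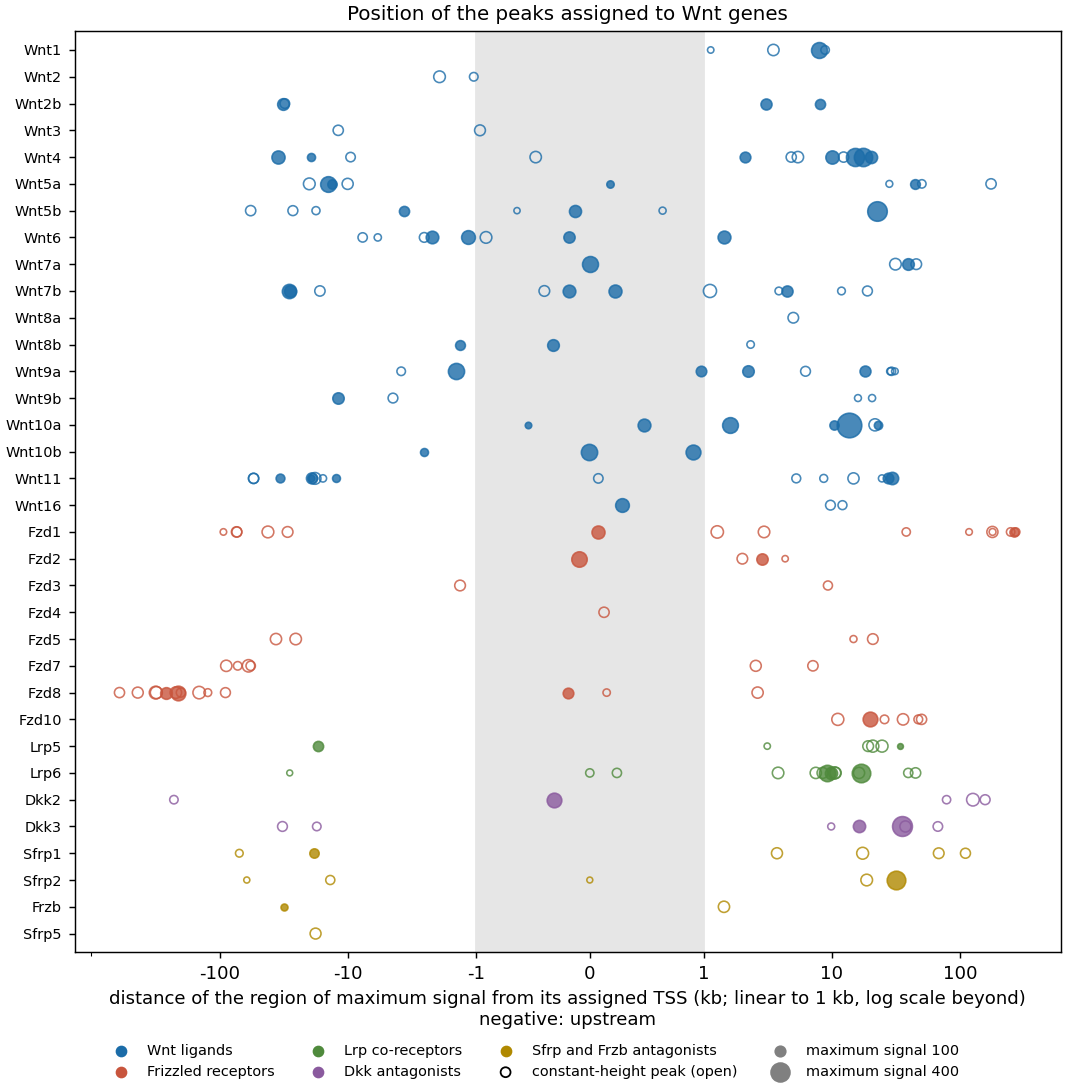
Signed distance in kb of each of the 208 member peaks from its assigned TSS (linear to 1 kb, logarithmic beyond, negative upstream), by gene and coloured by role group. Symbol area rises with maximum signal, open symbols are constant-height peaks, and the shaded band is the range within 1 kb. Ligand rows mostly have a symbol in the band, and the Fzd8 row extends upstream to 604122 bp.

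Peaks that vary in height were most frequent among the ligands and least among the Frizzled genes, a difference that was not tested. A peak is called constant-height when its total signal is at least 99% of its maximum signal times its width, so that the coverage hardly varies along it. Among the members 71 of 208 were not of constant height (34.1%, 28.0 to 40.8), against 36.7% of all annotated peaks. The share was 47.3% (38.2 to 56.5) in the 110 ligand peaks and 15.4% (8.01 to 27.5) in the 52 Frizzled peaks. Fzd5 and Fzd7, with 4 and 6 peaks, had only constant-height peaks, while 6 of the 7 Wnt10a peaks and all 3 Wnt10b peaks varied in height. Within 1 kb of a TSS 17 of 29 members varied in height (58.6%, 40.7 to 74.5), against 55.5% of all peaks so placed.

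The median maximum signal was 104.5 over the members (quartiles 60.2 and 136), against 101 over all annotated peaks (quartiles 66 and 135). By group the median was 97.5 for the ligands, 106.5 for the Frizzled genes, 117.5 for the Lrp genes, 86 for the Dkk genes and 98.5 for the Sfrp and Frzb group. All 5 medians fell between the quartiles of the list. Width had a median of 413.5 bp for ligand peaks and 182 bp for Frizzled peaks, against 363 bp over all annotated peaks. Total signal had a median of 25974 in the ligand peaks and 16364 in the Frizzled peaks, against 24533.

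**Figure D4:**
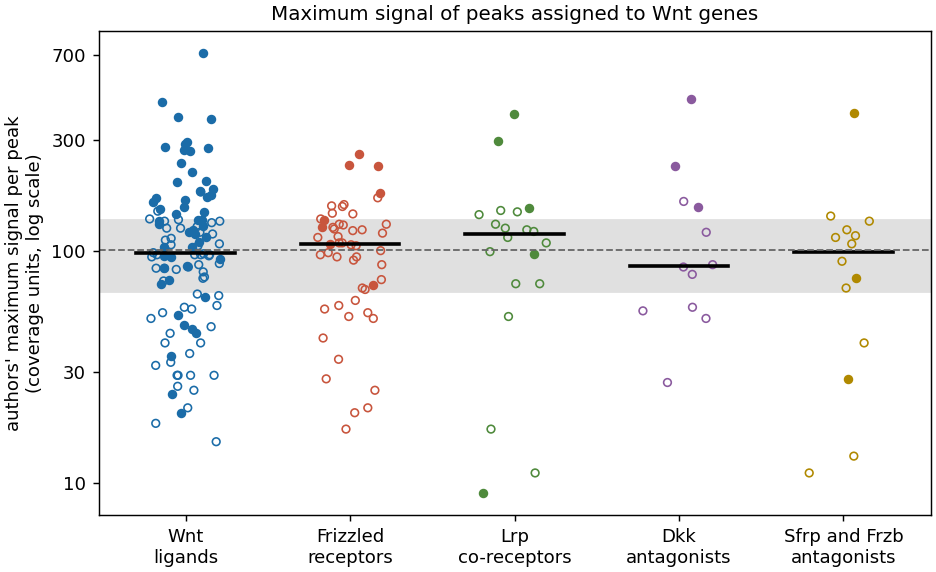
Authors' maximum signal of each member peak (log scale, coverage units) by role group, with open symbols for constant-height peaks, filled symbols for the others and a black line at each group's median. The grey band spans the quartiles of all annotated peaks, 66 to 135, and the dashed line their median, 101. All group medians lie in the band, and the highest symbol is the Wnt10a peak at 710.

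The summit sequences were compared with the list as a whole. In constant-height peaks the region of maximum signal spans nearly the whole peak, so their windows mark its middle. The GC content of the 200 bp windows had a median of 50.8% over the members, against 49.0% over all peaks. In flanks 1000 bp away it was 48.9% for the members and 45.5% for all peaks. The windows of the ligands had 54.0% and those of the Frizzled genes 46.8%. In the 29 windows within 1 kb of a TSS the median was 60.5% and the median number of CpGs 11, against 57.0% and 6 in all such windows. These 29 spread widely. The window over the Lrp6 TSS held 37 CpGs, that of Wnt11 held 30, and those of Wnt7a and of the nearest Wnt5b peak held 24 each. At the other end, the windows of Dkk2, Wnt3, Wnt8b and the second Wnt10b peak held 2 each and that of the second Wnt10a peak 1.

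PARIS has been reported to bind an insulin response sequence, which was searched as TATTTTT or TATTTTG on both strands. The sequence was present in 12 of the 208 member windows (5.77%, 3.33 to 9.81), against 9.95% of all windows. In the flanks the share was 12% for the members and 13.6% for all peaks. The order differed between stricter sets. In the highest 10% of peaks the share was 9.09% of 22 members against 5.96% of all windows. Those matches were only the Sfrp2 peak of 394 and the Fzd8 peak of 232. Without constant-height peaks it was 8.45% of 71 members against 7.0%. Both member shares lie within the interval of the full set, but no interval was computed for these smaller sets, so the order there was not resolved. The members stayed below among peaks above the median signal (6.60% against 8.76%) and among peaks at least 200 bp wide (5.80% against 10.02%). None of the 29 windows within 1 kb of a TSS held the sequence (upper bound of the Wilson interval 11.7%), against 5.40% of all windows so placed. The 12 were spread over ligands (5), Frizzled genes (5), Lrp5 (1) and Sfrp2 (1). The highest was the distal Sfrp2 peak of 394, whose summit window is printed here, as a choice made after its value was seen, with the match in capitals.
Sfrp2, distal peak, chr3:83798424-83798623, plus strand: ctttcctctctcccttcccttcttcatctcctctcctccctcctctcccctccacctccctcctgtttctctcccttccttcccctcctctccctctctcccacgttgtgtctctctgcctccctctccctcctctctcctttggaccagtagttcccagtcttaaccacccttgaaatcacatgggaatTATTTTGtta
This match, TATTTTG, is a description of letters and not of binding. The other 11 windows belonged to Fzd8 (maximum signals 232 and 114), Wnt4 (180), Lrp5 (143), Wnt9b (128), Fzd2 (105), Wnt5a (84), Wnt11 (64 and 24), Fzd10 (61) and Fzd1 (51).

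Of 50 other genes of the pathway, 39 (78.0%) had a peak within 1 kb of a TSS, against the 41.6% of all protein-coding genes given above. The subgroups and examples named here were chosen after the values were seen. All 8 genes of beta-catenin and its destruction complex (Ctnnb1, Apc, Apc2, Axin1, Axin2, Gsk3a, Gsk3b and Csnk1a1) had 1. By the highest such peak of each gene, Axin1 led with 500, Ctnnb1, beta-catenin itself, had 259, and Gsk3b was lowest with 49. Of the 8 nuclear partners 7 had a start-site peak, from 494 at Bcl9 down to 20 at Tcf7l2, and Tcf7 was the exception. All 3 R-spondin receptors (Lgr4, Lgr5 and Lgr6) had such a peak but only 1 of their 4 ligands, Rspo1, did. Wls, the carrier that brings Wnts to the cell surface, had 296, and Kremen1, a receptor for Dkk proteins, 444. Of the 3 Dishevelled genes, which relay the signal from Frizzled, only Dvl2 had a start-site peak, of 92. Dvl1, Dvl3, Notum, Sostdc1 and Nkd2 had no assigned peak at all.

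CUT&Tag gives no RNA level, so the tissue label can be set only against peaks at marker genes. Of 15 markers of brain cell types, 7 had a peak within 1 kb of a TSS, close to the 41.6% of all protein-coding genes. They were 3 of 4 for excitatory neurons, 2 of 2 for interneurons, 1 of 3 each for oligodendrocytes and microglia, and 0 of 3 for astrocytes. The microglial peak, at P2ry12, lay 990 bp from a TSS with a maximum signal of 18. The nearest peaks of the astrocyte markers lay beyond the limit, at 1142 bp (Gfap), 1462 bp (Aqp4) and 6964 bp (Slc1a3). The marker Neurod6 of excitatory neurons had none within 1 kb.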

How the data were processed

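The authors deposited 1 peak list, from the anti-FLAG library, with a total and a maximum signal per peak. The labels' protocols name Bowtie2 alignment to mm10, removal of low-quality and duplicate reads, and SEACR with the IgG library as control. Versions, SEACR settings and the scale of the signal are not given in the sources used here. A second deposited table gives each summit's class, gene and distance to a TSS. Both tables were matched by summit position. The signal copied into the second equalled that of the list for 100% of the peaks. No total signal is below 3329, so peaks both narrow and low are not in the list.

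Members and gene lists were chosen with earlier results of these data known. For all 208 members the assigned transcript's ends matched those in GENCODE M21, which also gave gene bodies. Windows were read with pyfaidx 0.9.0.4 under Python 3.11.15, and the motif search was tested on simulated windows. Shares carry 95% Wilson intervals from SciPy 1.17.1. No test was run, since there is 1 library per antibody.

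Every member gene is counted. Values are given in full for the 10 members with the highest maximum signal, the 5 with the highest total signal, the 5 genes with the most peaks and the nearest peak within 1 kb of each gene. The Wnt10a and distal Sfrp2 sequences were added to the rule. Sequences from chromosome 18 are not printed, and for the Frizzled group the summit sequence and the position of its highest start-site peak are not reported here. Alternatives were stricter peak sets, other TSS distances, any peak overlapping 1 kb around an annotated TSS, merged peaks, a 95% shape threshold and 400 bp windows.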

Additional observations from a re-analysis of the deposited data

How the results depend on the processing

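The 8 results were recomputed under 43 alternatives. Of these, 24 left the value within its 95% binomial interval or a count within 1.5 times, and 19 moved it. These values have no sign, so none could reverse. In the full list the share of windows with the insulin response sequence was below that of all peaks (5.77% against 9.95%). It was above in the highest 10% (9.09% against 5.96%) and without constant-height peaks (8.45% against 7.0%). It stayed below above the median signal (6.60% against 8.76%) and at 200 bp or wider (5.80% against 10.02%). These member shares all lie within the interval of the full set, 3.33 to 9.81. That interval does not bear on the order within a smaller set. No interval was computed for the smaller sets, so the turn in order was not resolved. The cause of a move was not tested except that stricter sets hold fewer peaks by construction. Restricted to signals above the list's median, there were 106 members, 48.1% of them not of constant height, against 49.1% of all such peaks. Their median maximum signal was 135.5, against 135. Of the 50 other pathway genes, 25 had a start-site peak in this set, against 29.6% of all protein-coding genes. In the highest 10% there were 22 members, 27.3% of them within 1 kb of a TSS (32.2% of all such peaks). All (100%) varied in height (99.9% of all such peaks). Their median maximum signal was 279 (239 for all such peaks) and their median GC content 56.5% (54.5%). There, 5 Wnt genes and 12 other pathway genes had a start-site peak, against 12.5% of all protein-coding genes. The 5 of 40 are at that share. In the full list the share was 50.0%, with an interval of 35.2 to 64.8 that also covers the 41.6% of all genes. Without constant-height peaks there were 71 members, 23.9% within 1 kb (23.2% of all such peaks). Their median maximum signal was 144 (134 for all such peaks) and their median GC content 55.0% (52.0%). At least 200 bp wide were 138 members, 45.7% of them not of constant height, against 47.5% of all such peaks. Within 3 kb of a TSS lay 25% of members, against 24.6% of all peaks. Windows of 400 bp held the insulin response sequence in 14.9% of members, and the share over all peaks is not given here for that width. The share not of constant height without constant-height peaks is fixed by construction and was not computed. Start-site peaks were counted for 14 of the 40 Wnt genes without constant-height peaks, against 28.3% of all protein-coding genes. Overlap with any annotated TSS gave 20 of 40, against 10427 of 21911 genes. The counts were 18 within 500 bp and 25 within 3 kb, for which the share over all genes is not given here. No paired analysis was possible because each antibody has 1 library, and no replicate could be left out for the same reason. The depth of both libraries is unknown, and a gene without a peak may have signal under the calling threshold.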
